A study of Mus musculus with 24 samples.

Results

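The genes described here are 10 that put peptides on the cell surface with major histocompatibility complex (MHC) class I, measured by RNA sequencing in the colon of mice with T cell transfer colitis. They are B2m, H2-K1, H2-D1, H2-T23, H2-M3, Tap1, Tap2, Tapbp, Erap1 and Nlrc5. They were chosen by name for their known roles, out of 43280 gene symbols counted, and all 10 passed the filter on low counts that left 14773 symbols for testing. Levels are given as CPM, counts per 1000000 counts of the library. The study set 6 groups of 4 colon libraries side by side, and asked with them how a MEK inhibitor and an antibody against the cytokine TNFa act on the inflamed colon.

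All mice were female C.B-17/Icr-scid/scid mice, bought at 7 weeks of age, which carry the scid mutation and lack mature T and B cells of their own. The Normal group had no treatment, and the labels do not give the day of its colons. Mice of the other 5 groups, called recipients here, were injected with CD4+ T cells of BALB/c mice, activated with concanavalin A and interleukin-2, and were divided on day 17 by a diarrhea score. Vehicle mice were given 0.5% methylcellulose. Enteric microparticles with an inhibitor of MEK, the kinase that activates ERK, went to the MEKi 0.3 group at 0.3 mg/kg and to the MEKi 1 group at 1 mg/kg, daily between day 17 and day 27. No group was given microparticles without drug, so the carrier and the drug cannot be told apart. The Isotype and anti-TNF groups were given a control antibody or an antibody against TNFa at 0.1 mg per mouse every 4 days from day 17. The distal colon of recipients was taken on day 28. The labels do not say that the 4 samples of a group were separate animals, so p-values measure only how far these samples spread, and that spread may be technical.

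MHC class I molecules carry short peptides from inside the cell to its surface, where CD8+ T cells and natural killer cells read them. Each holds a heavy chain, such as H2-K or H2-D, and the light chain beta-2-microglobulin, encoded by B2m. The proteasome cuts proteins into peptides, the transporter made of Tap1 and Tap2 moves them into the endoplasmic reticulum, the aminopeptidase Erap1 trims them, and tapasin, encoded by Tapbp, holds the empty heavy chain at the transporter until a peptide fits. Interferon-gamma from T cells raises this machinery through Irf1 and Nlrc5, the transactivator of class I genes, and in the gut epithelial cells as well as leukocytes carry class I.

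The group of each library was taken from the sample that its file belongs to. A table of all samples holds the same counts, but 16 of its 24 columns stand under the name of another sample, and only 8 libraries have the same group in both. Counts of the 3 T cell genes Cd3e, Cd3d and Cd3g, which untransferred scid mice should lack, summed to 0 to 2 in the Normal libraries by file and to 0 to 139 by the table's names. The table interchanges replicates 3 and 4 of Isotype with replicates 1 and 2 of anti-TNF, where the T cell genes do not settle which name is right. Of 12 pancreatic enzyme genes, 0 were at 0 in any Isotype library by file, against 7 to 9 in each anti-TNF library. Whether this settles the names was not tested. Under the table's names 0 of the 10 genes passed the test in any comparison, and all results below rest on the files' samples. With only the 8 libraries on which both agree, every one of the 10 genes was higher than in Normal in Isotype, MEKi 1 and anti-TNF, and 8, 5 and 3 of them passed the test, with 2 libraries a group.

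Library totals were 3052940 to 10587555 counts, and the antibody libraries were the deepest. Markers of colon epithelium fit the labelled tissue, with none at 0 in any library, and Epcam averaged 1765 CPM ± 69.4 (SD, n = 4) in Normal. Transcripts of pancreatic enzymes summed to 7798 CPM in Vehicle replicate 4 and 5758 CPM in Isotype replicate 1 and to at most 449.6 CPM elsewhere. Without either of these libraries, 10 of the 10 genes still passed the test against Normal. In whole colon, more cells that carry a transcript and more of it per cell cannot be told apart.

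The sequence upstream of class I genes is among the best known of interferon-responsive promoters, with a shared block of an NF-kB site, an interferon-stimulated response element (ISRE) and an SXY module whose X2 box is bound by CREB-family factors and at which Nlrc5 acts. RefSeq gave the 250 bases before the start of 8 of the 10 genes on GRCm38.p6, and Tap2 and Nlrc5 were not among them. Shown are 3 of them as examples of a light chain, a classical and a non-classical heavy chain. They run 5′ to 3′ on the strand of the gene, without bases that lie in an annotated exon, and capitals mark matches to the motifs searched.
B2m, chr2:122147437-122147685, plus strand: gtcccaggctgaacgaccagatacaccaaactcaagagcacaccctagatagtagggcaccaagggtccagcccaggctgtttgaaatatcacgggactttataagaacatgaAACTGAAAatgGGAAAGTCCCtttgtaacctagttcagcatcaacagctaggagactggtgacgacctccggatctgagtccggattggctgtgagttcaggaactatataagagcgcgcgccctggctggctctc
H2-K1, chr17:34000348-34000597, minus strand: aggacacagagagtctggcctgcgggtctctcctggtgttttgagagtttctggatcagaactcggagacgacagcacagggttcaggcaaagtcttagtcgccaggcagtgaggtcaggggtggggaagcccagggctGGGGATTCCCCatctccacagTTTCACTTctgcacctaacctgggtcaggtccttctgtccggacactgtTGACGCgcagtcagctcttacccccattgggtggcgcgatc
H2-M3, chr17:37269984-37270219, plus strand: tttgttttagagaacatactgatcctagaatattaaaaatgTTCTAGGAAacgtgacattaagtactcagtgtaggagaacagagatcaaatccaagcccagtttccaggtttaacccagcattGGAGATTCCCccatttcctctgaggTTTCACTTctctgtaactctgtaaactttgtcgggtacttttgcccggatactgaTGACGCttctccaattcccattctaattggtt

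The motifs, searched on both strands, were an ISRE core TTTCNNTT, the gamma-activated site TTCNNNGAA, the NF-kB site and the X2 box core TGACGC; the letters of the ISRE core were settled after the sequences had been seen. In H2-K1 and H2-M3 the order from the far end was NF-kB, ISRE match and X2 box core. B2m had the ISRE match before NF-kB and no exact match to the X2 core letters. An exact search misses sites that differ by a letter, so whether B2m has an X2 box was not tested. The gamma-activated site matched in H2-M3 alone among the 8 genes. A gene was counted when any of its promoters matched. The ISRE core matched in 5 of the 8 (B2m, H2-K1, H2-D1, H2-T23 and H2-M3) and in 23.9% of 27025 mouse genes. NF-kB matched in 4 (B2m, H2-K1, H2-D1 and H2-M3) against 8.23% of genes. The X2 core matched in 3 (H2-K1, H2-D1 and H2-M3) against 6.93%, and the gamma-activated site in 1 against 8.13%. H2-K1 and H2-D1 shared a run of 47 identical bases, and no other pair more than 12. A match describes letters and is not a measured binding site. These are reference sequences of C57BL/6, whose MHC haplotype differs from that of C.B-17 and BALB/c mice.

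On mm10 with GENCODE M21, 7 of the 10 genes lie on chromosome 17: Tapbp (chr17:33915899-33929292), H2-K1 (chr17:33996017-34000347), Tap1 (chr17:34187553-34197225), Tap2 (chr17:34203527-34216321), H2-D1 (chr17:35262730-35267499), H2-T23 (chr17:36029773-36032855) and H2-M3 (chr17:37270220-37274484). B2m lies at chr2:122147686-122153083, Erap1 at chr13:74639568-74693201 and Nlrc5 at chr8:94434356-94527272. All are protein-coding, H2-K1 and H2-T23 are on the minus strand, and values are counts per gene symbol. Heavy chain genes resemble each other: of all 50-base stretches of the transcripts, 9.63% in H2-K1, 12.8% in H2-D1 and 13.6% in H2-T23 also occurred in another gene, against 0.576% in H2-M3 and 0 in B2m, Erap1 and Nlrc5. Reads of H2-K, H2-D and H2-L, a further heavy chain of these mice, may therefore have been counted for one another or lost. On the opposite strand, exons of Tap1 overlap 212 bases of Psmb9, those of Erap1 834 bases of Cast, those of Tapbp 904 bases of Gm19412, those of Tap2 533 bases of Gm15821 and 165 of Gm20496, and those of Nlrc5 78 bases of 9330175E14Rik. On the same strand, exons of Tapbp overlap 149 bases of Zbtb22. Whether strand was used in counting is not given in the sources used here, so their reads may be mixed.

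In the colon of Vehicle recipients, all 10 genes were higher than in Normal, by 1.46-fold for Erap1 to 21.7-fold for Nlrc5. All 10 passed edgeR's quasi-likelihood test, in which p-values are adjusted by Benjamini-Hochberg over all 14773 genes and an adjusted p of 0.05 is the threshold. Of all tested genes, 46.4% passed in either direction and 23.1% were higher. In each of the 10, every Vehicle library was above every Normal library, as in 23.3% of all genes. The median log2 fold change was 1.72 over the 10 and 0.00 over all genes. The count stayed at 10 when any one of the 8 libraries was left out.

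**Figure D1:**
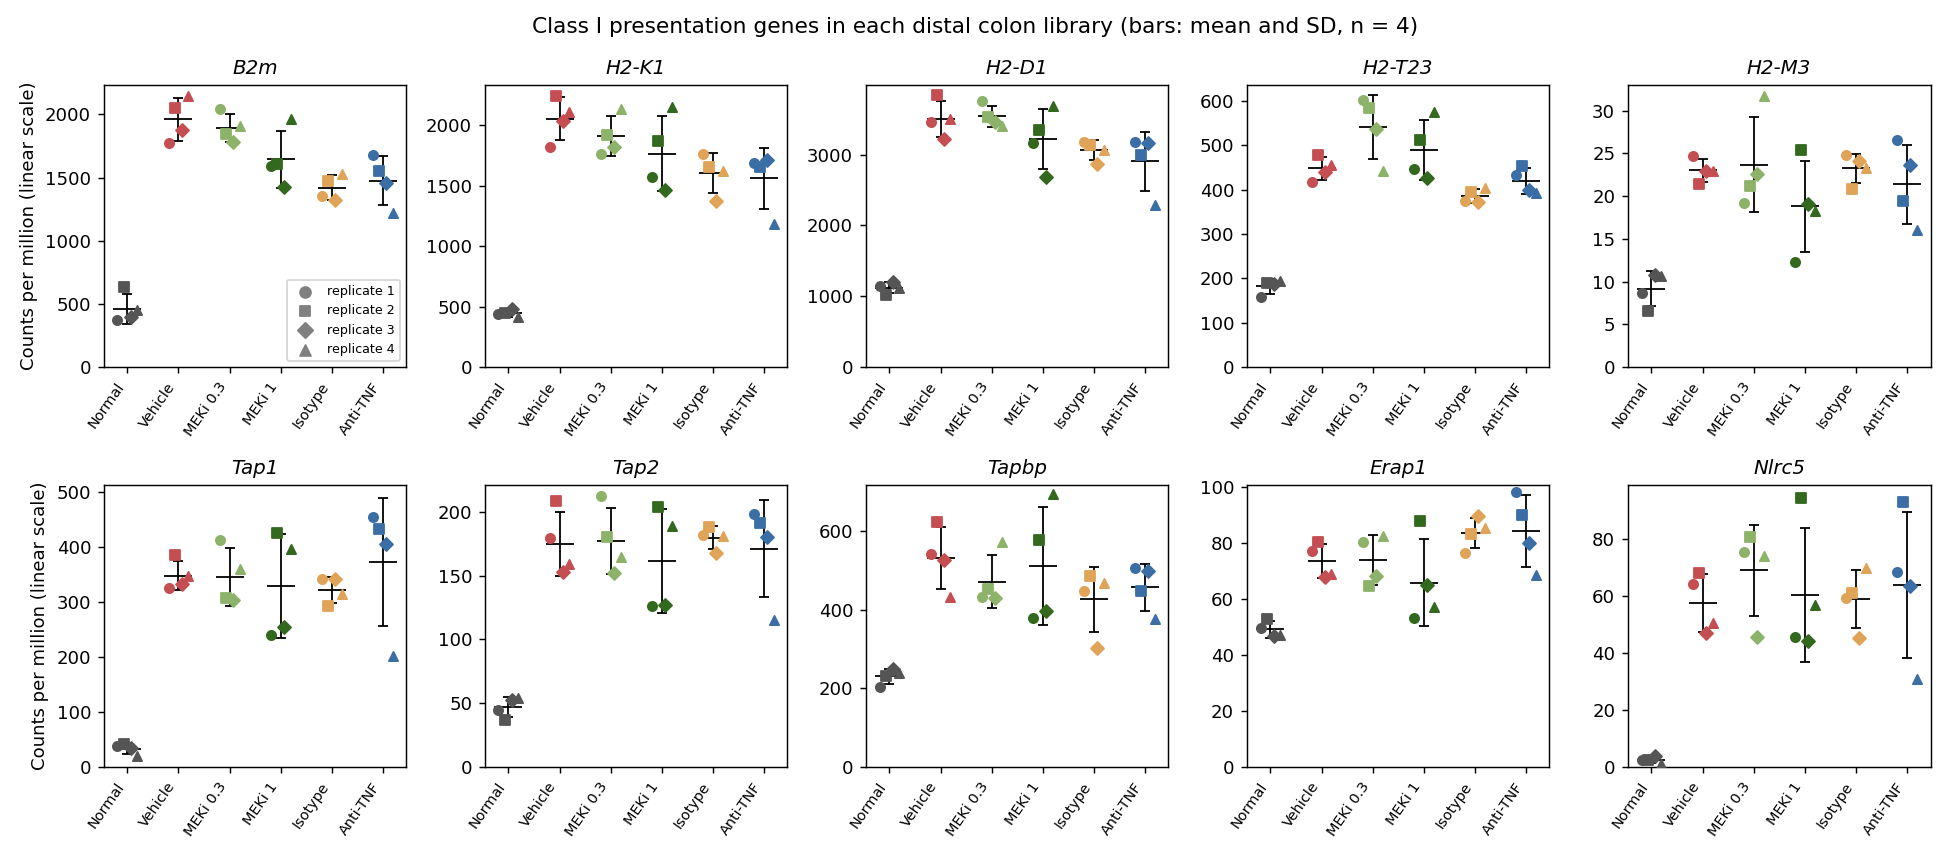
CPM of the 10 genes (linear axes from 0) in each of the 24 libraries, by group, with a symbol per replicate and bars for the mean and SD (n = 4). For every gene the 4 Normal points lie below all 20 recipient points, and the 5 recipient groups overlap for most genes. Erap1 is apart by little, at 53.06 CPM in Normal replicate 2 and 53.15 CPM in MEKi 1 replicate 1. How many of all genes lie below all 20 in this way was not counted.

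The light chain gene B2m stood at 372.2, 632.2, 395.8 and 451.7 CPM in Normal replicates 1 to 4 and at 1772, 2048, 1876 and 2142 CPM in Vehicle. Normal replicate 2 was the highest of its group and still far below every Vehicle library. The rise was 4.10-fold, a log2 fold change of 2.03 ± 0.16 (SE), with an adjusted p of 3.11e-09 in edgeR.

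H2-K1, a classical heavy chain that presents peptides to CD8+ T cells, was at 436, 446.5, 482.6 and 417.9 CPM in Normal and at 1821, 2241, 2036 and 2112 CPM in Vehicle. Its log2 fold change was 2.16 ± 0.15, or 4.48-fold (edgeR adjusted p 2.02e-10). H2-D1, the other classical heavy chain, was higher in CPM and rose less. It was at 1142, 1022, 1203 and 1119 CPM in Normal and at 3455, 3841, 3218 and 3503 CPM in Vehicle, a log2 fold change of 1.60 ± 0.13 (edgeR adjusted p 5.06e-09). The ratio of H2-D1 to H2-K1 counts was 2.29 to 2.68 in the Normal libraries and 1.58 to 1.90 in Vehicle, ranges that do not overlap; a ratio within a library is not affected by scaling.

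H2-T23 encodes Qa-1, a non-classical heavy chain that shows signal peptides of other class I chains to natural killer cell receptors. It was at 157.2, 189.7, 187.6 and 193.5 CPM in Normal and at 417.8, 477.6, 439.7 and 456.7 CPM in Vehicle, a 2.39-fold rise (log2 1.26 ± 0.13, edgeR adjusted p 2.10e-07). H2-M3, which binds peptides that begin with formyl-methionine as bacteria make them, had the lowest level of the 4 heavy chains among the 10 genes. It was at 8.66, 6.55, 10.8 and 10.7 CPM in Normal, from 20 to 58 counts, and at 24.7, 21.4, 22.91 and 22.96 CPM in Vehicle. Its log2 fold change was the same at 1.26 with a wider SE of 0.21 (edgeR adjusted p 5.89e-05).

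The transporter genes moved by unequal amounts. Tap1 was at 37.5, 42.6, 34.3 and 19.5 CPM in Normal and at 326.3, 386.4, 333.4 and 347.6 CPM in Vehicle. That is a 10.2-fold rise with a 95% interval of 7.09 to 14.6 (log2 3.35 ± 0.25, edgeR adjusted p 1.33e-09). Tap2, its partner in the same heterodimer, was at 45.0, 37.0, 52.4 and 54.1 CPM in Normal and at 179.2, 208.1, 152.6 and 158.8 CPM in Vehicle. It rose 3.58-fold with an interval of 2.74 to 4.69 (log2 1.84 ± 0.19, edgeR adjusted p 1.29e-07). Tap1 was below Tap2 in 3 of 4 Normal libraries and above it in all Vehicle libraries. Without strand the part of Psmb9 reads in this was not tested.

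Tapasin (Tapbp) was at 203.7, 230.9, 249.7 and 238.2 CPM in Normal and at 543.5, 624.6, 526.7 and 432.3 CPM in Vehicle, a 2.24-fold rise (log2 1.16 ± 0.19, edgeR adjusted p 4.08e-05). Erap1 had the smallest rise of the 10 genes. It was at 49.8, 53.1, 46.8 and 47.1 CPM in Normal and at 77.4, 80.4, 68.0 and 69.1 CPM in Vehicle, a 1.46-fold change (log2 0.54 ± 0.14, edgeR adjusted p 0.00327). The ratio of Erap1 to B2m was 0.0839 to 0.134 in Normal and lower, at 0.0323 to 0.0437, in Vehicle.

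Nlrc5, the transactivator of class I genes, had the lowest level of the 10 in Normal and the greatest rise. It was at 2.60, 2.62, 3.73 and 1.23 CPM in Normal, on 6 to 20 counts a library, and at 64.0, 67.9, 47.0 and 50.6 CPM in Vehicle, on 193 to 358 counts. The rise was 21.7-fold with a 95% interval of 12.9 to 36.3 (log2 4.44 ± 0.36, edgeR adjusted p 5.69e-09). This interval was the widest of the 10. Relative to B2m, Nlrc5 went from a ratio of 0.00273 to 0.00943 to one of 0.0236 to 0.0361, and Tap1 from 0.0433 to 0.101 to 0.162 to 0.189.

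To compare genes with each other, levels were divided by exon length in kilobases (CPM per kb). In Normal the order of mean levels was B2m at 538.3, H2-D1 at 434.9, H2-K1 at 151.7, Tapbp at 63.6, H2-T23 at 63.0, Tap2 at 12.5, Erap1 at 6.76, H2-M3 at 6.39, Tap1 at 6.11 and Nlrc5 at 0.30 CPM per kb. The ranges of B2m and H2-D1 overlapped, as did those of Tapbp and H2-T23, of Erap1 and H2-M3, and of H2-M3 and Tap1. In Vehicle the light chain stood clear of both classical heavy chains, with B2m at 2278, H2-D1 at 1359 and H2-K1 at 698.7 CPM per kb. H2-T23 followed at 155.1 and Tapbp at 146.6, with overlapping ranges, then Tap1 at 63.6, Tap2 at 46.2, H2-M3 at 16, Erap1 at 10.1 and Nlrc5 at 6.76 CPM per kb. Tap1 thus moved from the ninth place to the sixth by these lengths, and Nlrc5 stayed in the last. The lowest places drew together: Erap1 and Nlrc5 overlapped in MEKi 0.3, MEKi 1 and anti-TNF. Lengths were unions of exons. With the length of the longest transcript, H2-T23 and Tapbp changed places in Vehicle and Isotype, H2-M3 and Tap1 in Normal, where Tap1 was then the eighth, and H2-M3 and Erap1 in anti-TNF.

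**Figure D2:**
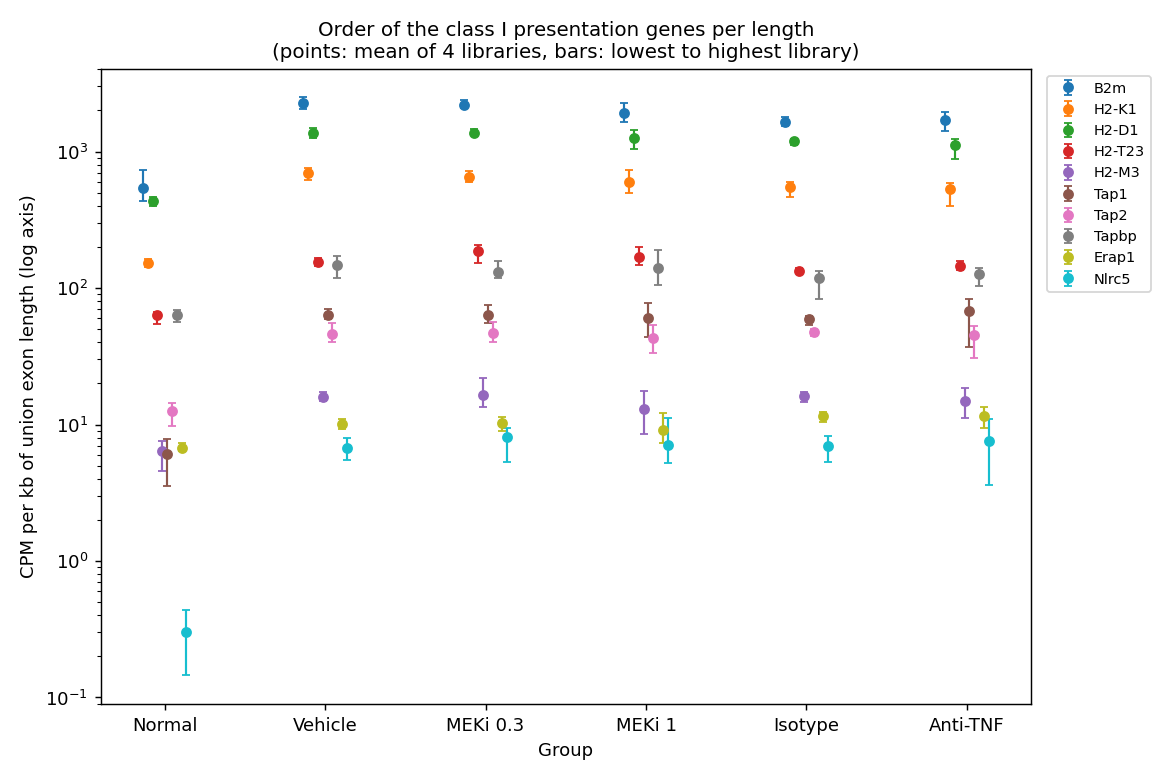
Mean CPM per kb of exon (log axis) of the 10 genes in the 6 groups, with bars from the lowest to the highest of 4 libraries. B2m, H2-D1 and H2-K1 held the first 3 places in every group, and Tap1 rose from 6.11 in Normal to 63.6 in Vehicle.

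The other recipient groups were also compared with Normal, with the same 4 Normal libraries in each comparison. All 10 genes were higher and passed edgeR in Isotype, MEKi 0.3, MEKi 1 and anti-TNF, where 20.9%, 10.8%, 8.06% and 12.5% of all genes were higher and passed. Median log2 fold changes of the 10 were 1.48 in Isotype, 1.75 in MEKi 0.3, 1.66 in MEKi 1 and 1.5 in anti-TNF, beside 0.00 to 0.02 over all genes. Nlrc5 had log2 fold changes of 4.47, 4.72, 4.55 and 4.61 in these groups, and Tap1 of 3.24, 3.36, 3.32 and 3.47. Erap1 was again the smallest, at 0.73, 0.57, 0.42 and 0.76. In MEKi 1 its edgeR adjusted p was 0.0499, and over 19 alternatives the call held in 4, with adjusted p-values of 0.0205 to 0.599. The other 9 genes stayed past the threshold in MEKi 1 whichever library was left out.

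**Figure D3:**
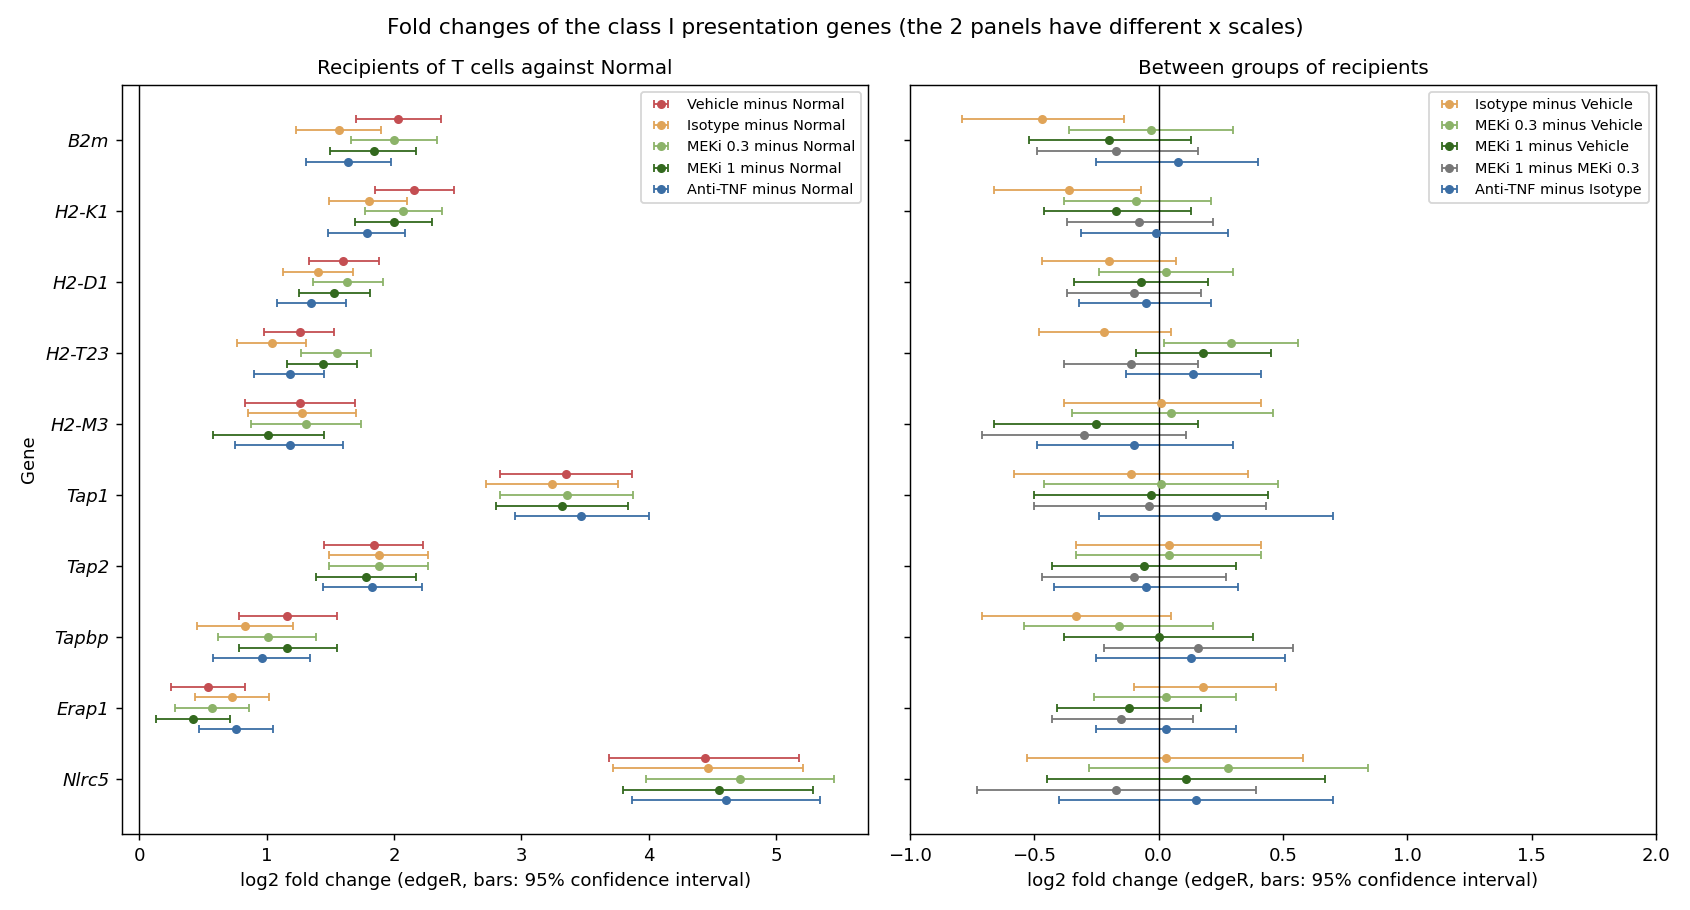
Log2 fold changes of the 10 genes from edgeR with 95% intervals, on the left for each recipient group against Normal and on the right between recipient groups, on another scale. Those against Normal lie between 0.42 and 4.72 with no interval reaching 0, and those between recipient groups lie between −0.47 and 0.29, with the lowest in B2m of Isotype against Vehicle.

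Genes upstream and downstream in the same pathway were followed through lists. All 5 genes of the immunoproteasome and its activator rose in Vehicle, with a median log2 fold change of 1.84. Psmb8 and Psmb9, catalytic subunits that interferon-gamma brings into the proteasome, rose by log2 3.16 ± 0.29 and 3.25 ± 0.29, Psmb10 by 1.52 ± 0.22, and the activator genes Psme1 and Psme2 by 1.38 ± 0.20 and 1.84 ± 0.24. The 3 constitutive subunits they replace also rose, by 0.91 ± 0.20 for Psmb5, 0.59 ± 0.16 for Psmb6 and 1.02 ± 0.20 for Psmb7. The ratio of Psmb9 to Psmb6 was 0.171 to 0.302 in Normal and 1.17 to 1.62 in Vehicle.

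Of 7 genes for loading chaperones and editors, 4 rose and 0 fell in Vehicle. These were Tapbpl, a tapasin-related peptide editor, at log2 1.37 ± 0.20, the lectin chaperone Calr at 0.78 ± 0.24, its partner Pdia3 at 0.56 ± 0.21 and the glycoprotein folding sensor Uggt1 at 0.43 ± 0.17. Without Normal replicate 4, and without Vehicle replicate 3, 2 of the 7 passed. Of 6 other peptidases, 3 rose, among them leucine aminopeptidase Lap3 at 1.83 ± 0.25 and bleomycin hydrolase Blmh at 0.90 ± 0.16. Lnpep, an aminopeptidase of endosomes, fell by 0.67 on the log2 scale. No peptidase passed as lower without Normal replicate 1 or 4 or Vehicle replicate 1 or 3.

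Of 17 other class I and class I-like chains, 16 were tested, 11 rose and 1 fell. H2-Q6, H2-Q7 and H2-Q10 rose by log2 2.27 ± 0.15, 2.31 ± 0.18 and 1.94 ± 0.15, and H2-T22 by 1.29 ± 0.14, though H2-Q7 and H2-Q10 share 50-base stretches with H2-K1. H2-M2 rose by 3.97 ± 0.50 from a mean of 1.13 CPM. The chains that present lipids and vitamin metabolites did not pass, with log2 fold changes of −0.13 ± 0.27 for Cd1d1 and −0.28 ± 0.38 for Mr1. Fcgrt, which carries immunoglobulin G and not peptides, fell by 0.64 on the log2 scale. It did not pass without Normal replicate 4 or Vehicle replicate 2 or 3.

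Regulators of class I promoters moved in both directions in Vehicle. Irf1 stood at 182.4 ± 16.7 CPM (SD, n = 4) in Normal and 570 ± 76.4 in Vehicle, with 1.60 ± 0.17 on the log2 scale. The NF-kB subunits Rela and Nfkb1 rose by 0.50 ± 0.12 and 0.33 ± 0.11. Of the factors that bind the SXY module, Rfx5 and Nfyc rose, by 0.58 ± 0.20 and 0.30 ± 0.12. Rfxank and Nfya, of the same complexes, fell by 0.78 and 0.56 on the log2 scale, and so did Irf2, by 0.67. Ifng, the gene of interferon-gamma, had 0 counts in the 4 Normal libraries together and 64 in Vehicle. With 3 counts over the Normal group as the floor, or 0.168 CPM, the pooled Vehicle level of 3.4 CPM was 20.3-fold above it. This floor covers counting error in Normal only, and single Vehicle libraries ran from 1.71 to 5.90 CPM. Ifngr1, a receptor gene for interferon-gamma, fell by 0.50 on the log2 scale.

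Of 7 genes for receptors that read class I, 4 were tested and all 4 rose in Vehicle. Cd8a, the coreceptor of CD8+ T cells, had 0 counts in Normal and 64 in Vehicle, although the labels name CD4+ T cells as those transferred. Its pooled Vehicle level was 20.3-fold above the same floor. Single Vehicle libraries ran from 0.85 to 6.26 CPM, and 1 of them held 33 of the counts. The receptor genes Klrk1 and Klrd1, of natural killer and T cells, rose by log2 1.71 ± 0.47 and 1.81 ± 0.57, and Pirb, an inhibitory receptor of myeloid cells for class I, by 2.79 ± 0.40.

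Markers of other cell types moved in the same comparison. All 4 leukocyte markers rose in Vehicle, by a median of 2.87 on the log2 scale, and summed to 59.0 to 83.3 CPM in Normal and 389.7 to 648 CPM in Vehicle. The 10 T cell markers summed to 10.6 to 14.6 CPM in Normal, with 4 to 8 of them at 0 in a library. In Vehicle they summed to 170.4 to 241.2 CPM. Sums of macrophage markers were 431.5 to 526.9 CPM in Normal and 2119 to 3729 CPM in Vehicle. For neutrophil markers they were 225.3 to 442.1 and 735.3 to 1331 CPM. For B and plasma cell markers they were 0.22 to 2.05 and 59.5 to 430.8 CPM, with up to 2 of the 5 at 0 in a Vehicle library. In contrast, all 5 smooth muscle markers fell, from sums of 5386 to 6414 CPM to sums of 1206 to 2467 CPM, with a median of −1.64. Of 8 epithelial markers 1 rose and 3 fell, and of 4 endothelial markers 0 passed edgeR, while 1 had an unadjusted p under 0.05. The part of these shifts in the rise of the class I genes was not tested.

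MEKi 1 was next compared with Vehicle. EdgeR called 0 of the 10 genes, 0 had an unadjusted p under 0.05, DESeq2 called 0 and limma-voom called 1. Of all genes 10.6% passed edgeR, 1565 in number. Over all genes 4483 of 14773 had an unadjusted p under 0.05, DESeq2 called 2234 and limma-voom 4809. Log2 fold changes of the 10 ran from −0.25 for H2-M3 to 0.18 for H2-T23, with adjusted p-values of 0.35 to 0.997. Their 95% intervals lay between −0.66 and 0.67. The gene called by limma-voom was H2-K1, with a log2 fold change of −0.30 and an adjusted p of 0.0346, against −0.17 ± 0.14 in edgeR. In MEKi 1 it was at 1575, 1866, 1461 and 2150 CPM, and the second and the last of these lay within the range of Vehicle.

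In the same comparison all 4 leukocyte markers fell, by 1.08 for Ptprc, 1.30 for Cd52, 1.29 for Coro1a and 1.15 for Laptm5 on the log2 scale. Of 10 T cell markers 7 fell, of 5 neutrophil markers 4 and of 5 macrophage markers 3. Leukocyte marker sums were 134.8 to 373.2 CPM in MEKi 1, all below the lowest Vehicle library at 389.7 CPM. None of the 5 immunoproteasome genes passed edgeR, and Psmb9 had a log2 fold change of 0.00 ± 0.26. Irf1 had one of −0.01 ± 0.16. Ifng had a log2 fold change of −1.25 ± 0.77 with an edgeR adjusted p of 0.281, on 23 counts in MEKi 1. Blmh and Pirb fell, by 0.50 and 1.65, and Nfya and Rfxank rose, by 0.78 and 0.62. Of these lists, 0 peptidases passed as lower without Vehicle replicates 1 to 4 or MEKi 1 replicates 1, 3 or 4, each left out in turn, and 0 receptors without Vehicle replicate 4 or MEKi 1 replicate 1. Regulators that rose were 1, not 2, in all omissions but that of MEKi 1 replicate 2, where they were 3. The difference between the marker genes and the class I genes was not tested as such.

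These marker counts leaned on single libraries. The number of genes called in all fell from 1565 to 43 without MEKi 1 replicate 1, to 131 without Vehicle replicate 4, to 296 without MEKi 1 replicate 3, to 324 without Vehicle replicate 1 and to 812 without Vehicle replicate 2, and rose to 2369 without MEKi 1 replicate 2. Leukocyte markers called lower were 1 without MEKi 1 replicate 1, 2 without MEKi 1 replicate 3 or Vehicle replicates 1 or 4, and 4 in the other omissions. T cell markers called lower were 0 without MEKi 1 replicate 1 or Vehicle replicate 4, 1 or 2 without MEKi 1 replicate 3 or Vehicle replicates 1 or 2, and up to 8 without MEKi 1 replicate 2. Neutrophil markers called lower were 0 without MEKi 1 replicates 1 or 3 or Vehicle replicates 1 or 4, 1 without Vehicle replicate 2 and 2 without MEKi 1 replicate 4, and macrophage markers were 1 without MEKi 1 replicate 1 or Vehicle replicate 4. The count of class I genes was 0 in all 8.

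**Figure D4:**
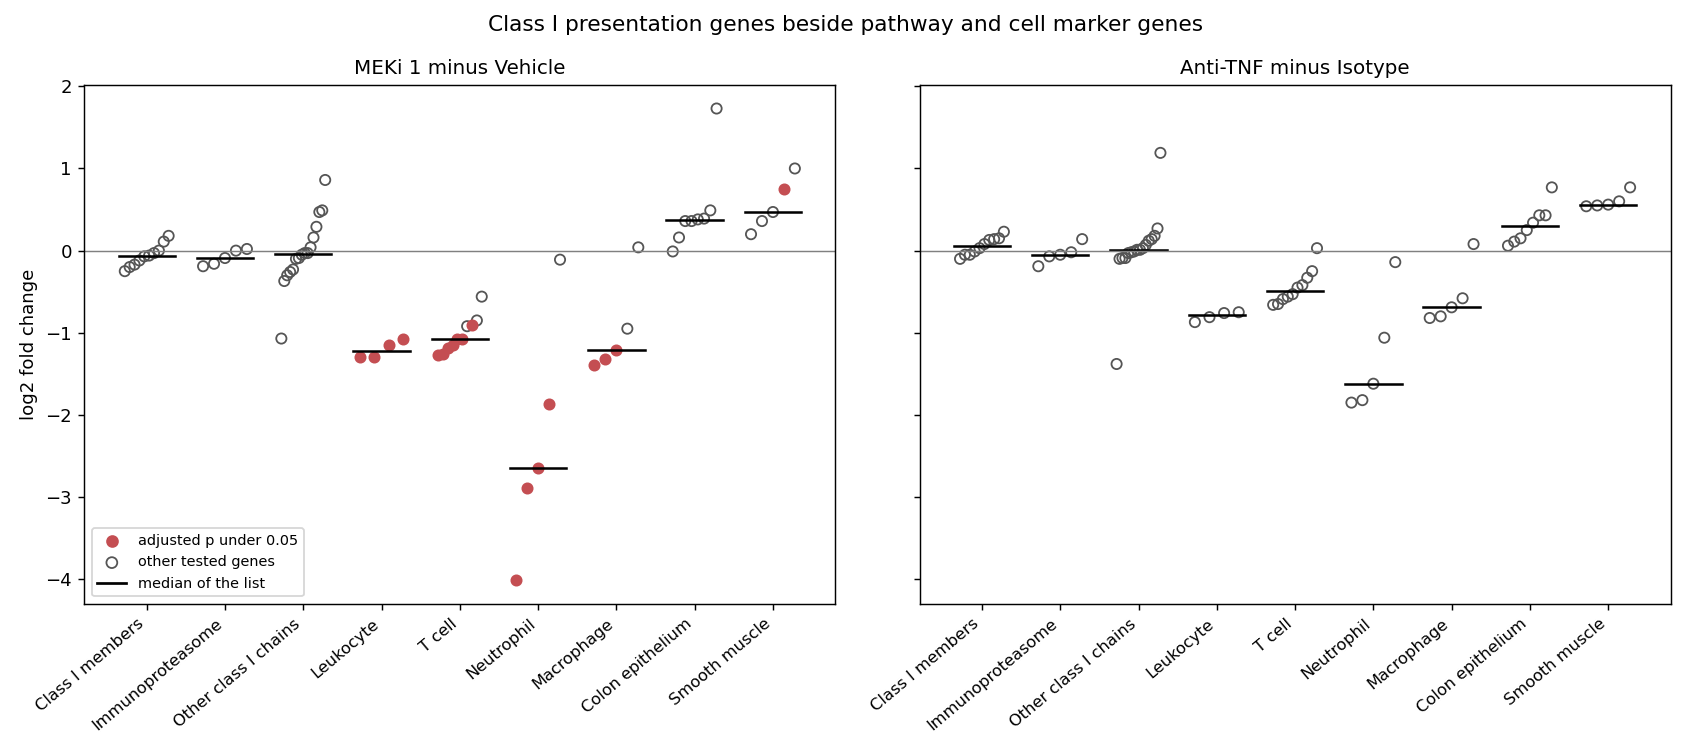
Log2 fold changes from edgeR of genes in lists of the pathway and of cell markers, with a point per gene (filled where the adjusted p was under 0.05) and a line at each median, for MEKi 1 against Vehicle and anti-TNF against Isotype. In MEKi 1 the 4 leukocyte markers lie at −1.08 to −1.30, while the 10 class I genes lie between −0.25 and 0.18.

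At the lower dose, MEKi 0.3 against Vehicle, edgeR called 0 of the 10 genes and 1 gene in all, or 0.00677%. Without MEKi 0.3 replicate 4 it called 1130 genes in all. With all libraries, 2635 of the 14773 genes had an unadjusted p under 0.05, DESeq2 called 92 in all and limma-voom 3358. Of the 10, 1 had an unadjusted p under 0.05, DESeq2 called 0 and limma-voom 1. That gene was H2-T23, at 602, 584.8, 536.6 and 441.4 CPM in MEKi 0.3, with 3 of these values above all Vehicle libraries. Its log2 fold change was 0.29 ± 0.13 with an adjusted p of 0.252 in edgeR and 0.37 with an adjusted p of 0.0138 in limma-voom. The others lay between −0.16 for Tapbp and 0.28 for Nlrc5, and all intervals between −0.54 and 0.84. Between the doses, MEKi 1 against MEKi 0.3, the 10 log2 fold changes ran from −0.30 to 0.16 with intervals between −0.73 and 0.54 and an edgeR adjusted p of 1. Here edgeR called 0 genes in all (0%), 641 had an unadjusted p under 0.05, DESeq2 called 2 and limma-voom 0, and for the 10 genes each of these counts was 0.

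Under the antibody against TNFa, compared with Isotype, edgeR called 0 of the 10 genes and 3 genes in all (0.0203%). Over all genes, 1653 had an unadjusted p under 0.05, DESeq2 called 77 and limma-voom 35. None of the 10 had an unadjusted p under 0.05, and DESeq2 and limma-voom called 0 of them. Log2 fold changes were −0.10 for H2-M3 to 0.23 for Tap1, with intervals between −0.49 and 0.70 and adjusted p-values of 0.724 to 0.986. Tap1 was at 454.5, 433.1, 405.7 and 201.3 CPM in anti-TNF and at 342, 292.8, 341.7 and 315.7 CPM in Isotype. Its first 3 anti-TNF libraries were above every Isotype library and the last below every one. Leukocyte markers summed to 148.2 to 321.3 CPM in anti-TNF, all below the Isotype libraries at 326.8 to 536 CPM, but 0 of the 4 passed edgeR. Whether the MEKi 1 effect differed from the anti-TNF effect was also tested. Over all genes, edgeR called 0.0135%, 728 had an unadjusted p under 0.05, DESeq2 called 7 and limma-voom 1407. Of the 10 genes, edgeR, DESeq2 and limma-voom called 0, and none had an unadjusted p under 0.05. These differences ran from −0.27 to 0.04 with intervals between −0.92 and 0.75.

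The 2 control groups of recipients were also compared. Isotype against Vehicle, edgeR called 0 of the 10 genes, 2 had an unadjusted p under 0.05, DESeq2 called 1 and limma-voom 2. Over all genes, 2.99% passed edgeR, 2577 of 14773 had an unadjusted p under 0.05, DESeq2 called 789 and limma-voom 2977. B2m was at 1353, 1471, 1326 and 1528 CPM in Isotype, each below the lowest Vehicle library at 1772 CPM. Its log2 fold change was −0.47 ± 0.16 with an adjusted p of 0.111 in edgeR, 0.048 in DESeq2 and 0.0158 in limma-voom. H2-K1 had −0.36 ± 0.14 with 0.17 in edgeR and 0.0264 in limma-voom. For B2m, H2-K1, H2-D1 and H2-T23 the Isotype libraries all lay below the Vehicle libraries. How many of all genes lay apart in this way was not counted. Erap1 had a log2 fold change of 0.18 ± 0.14 and an edgeR adjusted p of 0.528. These groups differed in agent and in depth, with totals of 6139216 to 10587555 in Isotype and 4102817 to 5271844 in Vehicle, and these cannot be told apart.

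Within a group the 10 genes tended to be high or low in the same libraries. Over the 20 recipient libraries, with group means removed, the 45 pairs of genes had correlations of log2 CPM, here with library totals scaled by TMM factors, from −0.07 for H2-T23 with H2-M3 to 0.91 for Tap1 with Tap2, with a median of 0.61. B2m with H2-D1 had 0.85 and H2-K1 with H2-D1 0.84. The points share libraries and depth, and the heavy chains share sequence. In anti-TNF, replicate 4 was the lowest of its group in all 10 genes, with a mean log2 CPM over the 10, on the same TMM-scaled totals, of 7.82 against 8.36 to 8.48 in the others. In MEKi 1, replicates 1 and 3 held the lowest place for 5 genes each, with means of 8.01 and 8.05, and replicates 2 and 4 the highest for 5 each in CPM. The means of replicates 2 and 4 were 8.52 and 8.59 with TMM factors and 8.55 and 8.46 without, so their order turned with the scaling. Vehicle and Isotype were tighter, at 8.30 to 8.54 and 8.19 to 8.29. Nlrc5 was at 45.6, 94.3, 44.1 and 56.7 CPM in MEKi 1, high in replicate 2 and less so in replicate 4.

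Marker sums, in CPM, were set beside these means. MEKi 1 replicate 4 had the lowest leukocyte (134.8 CPM) and T cell (67.1 CPM) marker sums of its group. Anti-TNF replicate 4 was lowest in both, with 148.2 and 61.4 CPM. Smooth muscle markers were high in these 2 groups where the mean of the 10 genes was low. They summed to 4212 CPM in anti-TNF replicate 4, above the 1705 to 2294 CPM of the others in its group. In MEKi 1 they summed to 3375 and 3085 CPM in replicates 1 and 3 against 2017 and 1882 CPM in replicates 2 and 4. The sum in MEKi 1 replicate 4 was thus the lowest of its group, as was its leukocyte sum. Over the 20 recipient libraries the mean of the 10 genes had a correlation, with group means removed, of −0.70 with smooth muscle markers, and of −0.75 when its totals were not scaled by TMM factors. With leukocyte markers it was 0.34 and, without that scaling, 0.50, and with T cell markers 0.38 and 0.53. The other marker lists had 0.40 for neutrophils, 0.12 for epithelium, 0.01 for macrophages, −0.38 for pancreas, −0.43 for B and plasma cells and −0.44 for endothelium, and 0.40, 0.01, 0.21, −0.29, −0.37 and −0.29 without the scaling. These are descriptions of libraries that share a tissue piece and a depth, and the part of smooth muscle content in the class I values was not tested.

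**Figure D5:**
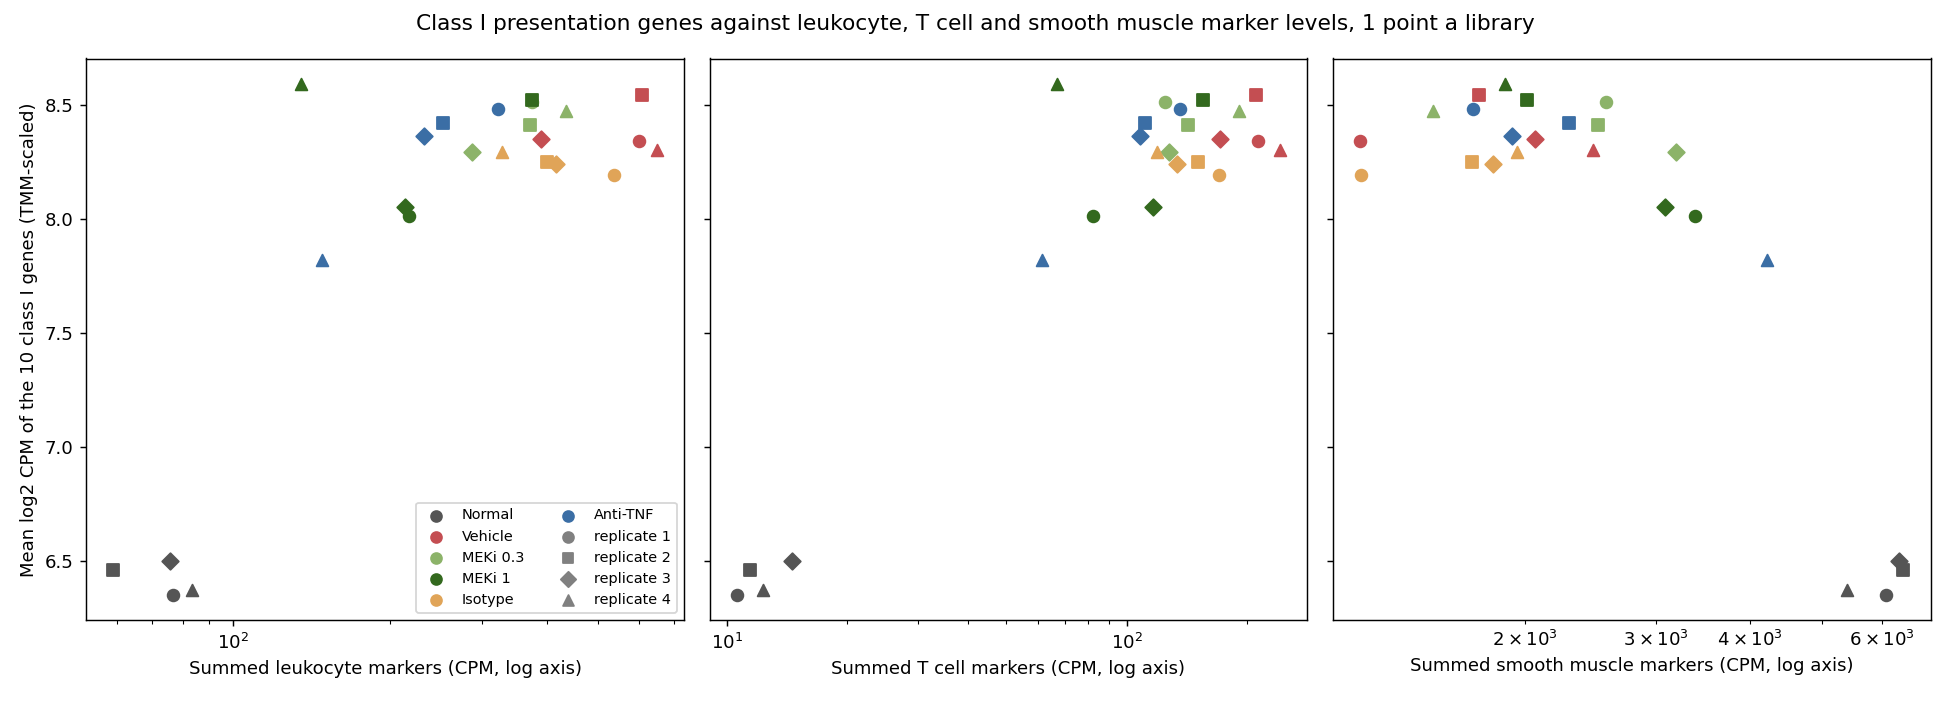
Mean log2 CPM of the 10 class I genes (TMM-scaled totals) against summed marker CPM (log axis) of leukocytes, T cells and smooth muscle, with a point per library, colours for groups and symbols for replicates. Normal libraries lie apart at 6.35 to 6.50, and anti-TNF replicate 4, at 7.82, has the highest smooth muscle sum of the recipients.

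The genes outside the 10 whose log2 CPM (TMM-scaled totals) was most like the mean of the 10 over the 20 recipient libraries, among 11086 genes with a mean of at least 5 CPM, were Psmb9 with a correlation of 0.92, Wars and Gbp2 with 0.88, and Tgtp2 and Tgtp1 with 0.87. Psmb9 is an immunoproteasome subunit and overlaps Tap1, Wars encodes the tryptophan tRNA synthetase, Gbp2 a guanylate-binding protein and Tgtp1 and Tgtp2 T cell-specific GTPases of the same interferon-inducible kind. All 5 averaged more in recipients than in Normal, from 203.7 to 735.7 CPM for Wars and from 1.93 to 74.0 CPM for Tgtp2.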

How the data were processed

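Poly(A) RNA of 24 colon libraries was fragmented with RNase III and sequenced on an Ion Torrent instrument, per the labels' protocols. Raw counts per symbol were deposited, 1 file a sample. The build was mm10, per the submitters' processing notes. The strand handling, like the aligner, counter and annotation, is not given in the sources used here. Reads that fit several class I genes may therefore be shared or lost.

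Counts were used as deposited, and CPM was the count over the library total. All 24 libraries were fitted with edgeR 4.0.16 in R 4.3.3: TMM factors, filterByExpr, robust quasi-likelihood fits, F tests and Benjamini-Hochberg adjustment over 14773 genes, with a threshold of 0.05. Each SE was the log2 fold change, without sign, over the square root of F, and intervals are 95%. Correlations and the mean of the 10 genes took log2 CPM with a prior count of 2, for which, unlike CPM elsewhere, library totals were scaled by the TMM factors. H2-M3 and Nlrc5 had the fewest counts in Normal. No replicates were duplicates. The labels number replicates alike. For MEKi 0.3 and Vehicle, same-numbered libraries deviated together (correlations of 0.126, 0.125, 0.167 and 0.184, all above 0.1). Differently numbered libraries were not compared in this way, so a pairing of the samples was not tested.

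Alternatives were DESeq2 1.42.0, limma-voom (limma 3.58.1) with weights, RLE or no factors, no filter, a filter at a mean of 5 CPM, a replicate block, a length offset, a fit of only the groups compared, the table's names, the agreeing libraries and leaving out each library. A block within only the groups compared was added after seeing the data. The genes, lists and naming rules were chosen with earlier results of these data known: all 10 genes are named, up to 4 genes a list by smallest p in Vehicle against Normal, Ifng, Irf1, Psmb8, Psmb9, Psmb10, Cd8a and Ptprc, and the 5 most alike genes by correlation, without predicted and Riken genes. H2-M2, Cd1d1, Mr1, Fcgrt, Irf2, Rfx5, Nfyc, Rela, Nfkb1 and Epcam were named after their values were seen. A gene of the regulator list is not reported here. The fits were tested on simulated data.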

Additional observations from a re-analysis of the deposited data

Results flagged for a closer look

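Among 60 sets of 4 libraries, 1 for each of the 10 genes in each group, 3 held a library far from the other 3, with a gap to its nearest neighbour, as a share of the whole range, above the 95% critical value of Dixon's test. Chance sets about 1 in 20 such sets apart. H2-K1 in anti-TNF replicate 4 was at 1181 CPM, the lowest of a group that ran to 1715, with a gap of 0.884 of that range. H2-T23 in Normal replicate 1 was at 157.2 CPM, the lowest of a group that ran to 193.5, with a gap of 0.837. Tapbp in MEKi 0.3 replicate 4 was at 572.8 CPM, the highest of a group that began at 429.7, with a gap of 0.839.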

How the results depend on the processing

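Against Normal, the 180 alternative values of the 10 genes in Vehicle and the 180 in MEKi 0.3 all stayed higher and past the threshold, at log2 fold changes of 0.50 to 4.71 and 0.52 to 4.99, aside from the table's names. In Isotype 2, in MEKi 1 19 and in anti-TNF 7 of 190 values fell short of the threshold with the same direction. The count of 10 did not move when a library was left out, except in MEKi 1, where it was 9 to 10. With the libraries on which both labellings agree it was 5 in MEKi 1 and 3 in anti-TNF, with 2 libraries a group; no such library exists in Vehicle or MEKi 0.3. The table's names gave 0 of 10 for Vehicle, Isotype, MEKi 0.3, MEKi 1 and anti-TNF against Normal. They turned 7 log2 fold changes of Vehicle against Normal: B2m to −0.12, H2-D1 to −0.05, H2-T23 to −0.18, Tap1 to −0.18, Tap2 to −0.18, Erap1 to −0.03 and Nlrc5 to −0.43. Of the 10 genes, DESeq2 called 1 of Isotype against Vehicle, and limma-voom called 2 there, 1 of MEKi 0.3 and 1 of MEKi 1 against Vehicle. Over all genes these counts were 789, 2977, 3358 and 4809, and the cause was not tested.

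The replicate block over all 24 libraries left the counts at 10 against Normal, but at 9 in MEKi 1, where Erap1 fell short, and at 0 among recipients. For MEKi 0.3 against Vehicle, where same-numbered libraries deviated together, the block with only these groups called 389 genes in all against 1, and 0 of the 10. Over all genes, alternatives other than the table's names gave 0 to 3358 calls there, 59 to 2977 for Isotype against Vehicle (442), 773 to 4809 for MEKi 1 against Vehicle (1565), 0 to 277 for anti-TNF against Isotype (3), 0 to 2 for MEKi 1 against MEKi 0.3 (0) and 2 to 1407 for the difference of effects (2), and with a library left out 43 to 2369 for MEKi 1 against Vehicle. Counts in Normal were lowest for Nlrc5 and H2-M3, at 6 to 20 and 20 to 58 a library.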
